A study of Arabidopsis thaliana and Medicago truncatula and Solanum lycopersicum with 15 samples.

Results

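Accessible chromatin was described at 7 Arabidopsis transcription factor genes, HY5 (AT5G11260), ABF3 (AT4G34000), ABI5 (AT2G36270), CBF2 (AT4G25470), MYB77 (AT3G50060), MYB33 (AT5G06100) and NAC083 (AT5G13180). The genes were taken by their locus identifiers and are 7 of the 27444 protein-coding genes annotated on chromosomes 1 to 5. Open chromatin was mapped by ATAC-seq, a method that lets Tn5 transposase insert sequencing adapters into DNA that nucleosomes leave exposed. The authors deposited 1 list of accessible regions per sample, and each list gives a chromosome, a start and an end for every region. The 8 lists of Arabidopsis Col-0 were used here, and those of other plant species were not.

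All lists came from plants grown on vertical agar plates, and the age of the plants is not given. Hair cell nuclei (2 replicates) and non-hair cell nuclei (2 replicates) were captured from the fully differentiated root zone by INTACT, the affinity purification of nuclei that carry a biotinylated envelope tag (NTF). The tag was driven by the ADF8 promoter (ADF8p:NTF) for hair cells and by the GL2 promoter (GL2p:NTF) for non-hair cells, with the biotin ligase BirA under the ACT2 promoter in both lines. Whole root tip nuclei came from the last 1 cm of the root. They were purified by sucrose sedimentation (2 replicates) or by INTACT with the tag under the constitutive UBQ10 promoter and BirA under ACT2 (2 replicates). The sample labels name Col-0 for both, and the design text gives the tag for the INTACT root tips. Each reaction held 50000 nuclei, so a list is an average over many nuclei. Fewer nuclei with an open site and a less open site in every nucleus cannot be told apart.

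Accessible regions of plant genomes lie mostly next to genes, where regulatory proteins bind DNA in place of nucleosomes. HY5 is a bZIP factor that promotes light responses and is degraded in the dark through the ligase COP1. ABF3 and ABI5 are bZIP factors of abscisic acid signalling, ABF3 mostly in vegetative tissue and ABI5 best known in seeds and young seedlings. CBF2 (DREB1C) is an AP2-type factor of the cold response. MYB77 is an R2R3 MYB known in auxin responses and lateral root formation, and MYB33 is a GAMYB-like factor whose transcript is a target of miR159. NAC083 (VNI2) is a NAC factor that binds VND7, the master regulator of xylem vessel formation.

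Each gene was described in a window made of the gene and 2 kb on both sides. The gene table gives no strand, so the gene ends are named by coordinate (low or high) and not as start and end of transcription. A window of 2 kb upstream and 1 kb downstream lies inside this one on either strand. Coordinates are those of the authors' lists, for which the submitters' processing notes name TAIR10. The measure of a window is its number of regions and its covered length, the bp of the window inside regions. The lists hold no score or read count, so sequencing depth is unknown. They held 11702 to 52373 regions on these chromosomes, and replicate 1 of both epidermal cell types held the longest lists. The ratio of replicate 1 to replicate 2 was 1.47 for hair and 1.67 for non-hair cells. The narrowest region of a list, which was its commonest width in 7 lists, ranged from 124 bp to 211 bp. The labels were checked at 6 marker genes. ADF8 had 1251 and 1210 bp covered in hair lists, against 396 and 350 bp in non-hair lists. GL2 had 1303 and 981 bp covered in hair lists, against 4276 and 2314 bp in non-hair lists, and 0 bp in all 4 root tip lists. These are also the promoters of the tag transgenes, whose part in these values was not tested. WER, another non-hair gene, had 326 and 267 bp in hair lists, against 614 and 236 bp in non-hair lists. The hair genes RHD6, EXP7 and COBL9 did not separate the cell types either. RHD6 had 644 and 402 bp in hair lists, against 536 and 594 bp in non-hair lists. EXP7 had 1440 and 808 bp in hair lists, against 2439 and 793 bp in non-hair lists. COBL9 had 2010 and 1200 bp in hair lists, against 1952 and 943 bp in non-hair lists. The mean was thus lower in hair lists for RHD6 and EXP7.

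All 7 genes carried accessible regions. A region was found in 53 of the 56 combinations of gene and list (75.2% of such combinations over all protein-coding genes). Of the 7 genes, 5 had a region in all 8 lists, against 44.6% of all protein-coding genes. All 7 genes had a region in each hair list, where 91.9% and 86% of all genes had one, and in each non-hair list, where 91.3% and 82.6% had one. In the sucrose lists 5 and 6 of the 7 genes had a region, against 49.5% and 59.7% of all genes. In the INTACT root tip lists all 7 did, against 71.7% and 68.6% of all genes. The 3 empty combinations were MYB33 in both sucrose lists and NAC083 in sucrose replicate 1. The windows held 37 and 27 regions in hair lists, 40 and 23 in non-hair lists, 10 and 15 in sucrose lists and 15 and 17 in INTACT root tip lists. The 184 regions were 127 bp to 1280 bp wide, and 16 of them had the narrowest width of their list. In non-hair replicate 1 the narrowest width was 124 bp and the commonest 131 bp. Its regions of 131 bp, at MYB33 and NAC083, are not among the 16, though only 0.0019% of that list was narrower. The lists do not grade regions, so presence at the narrowest width and absence are the closest values they can give.

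**Figure D1:**
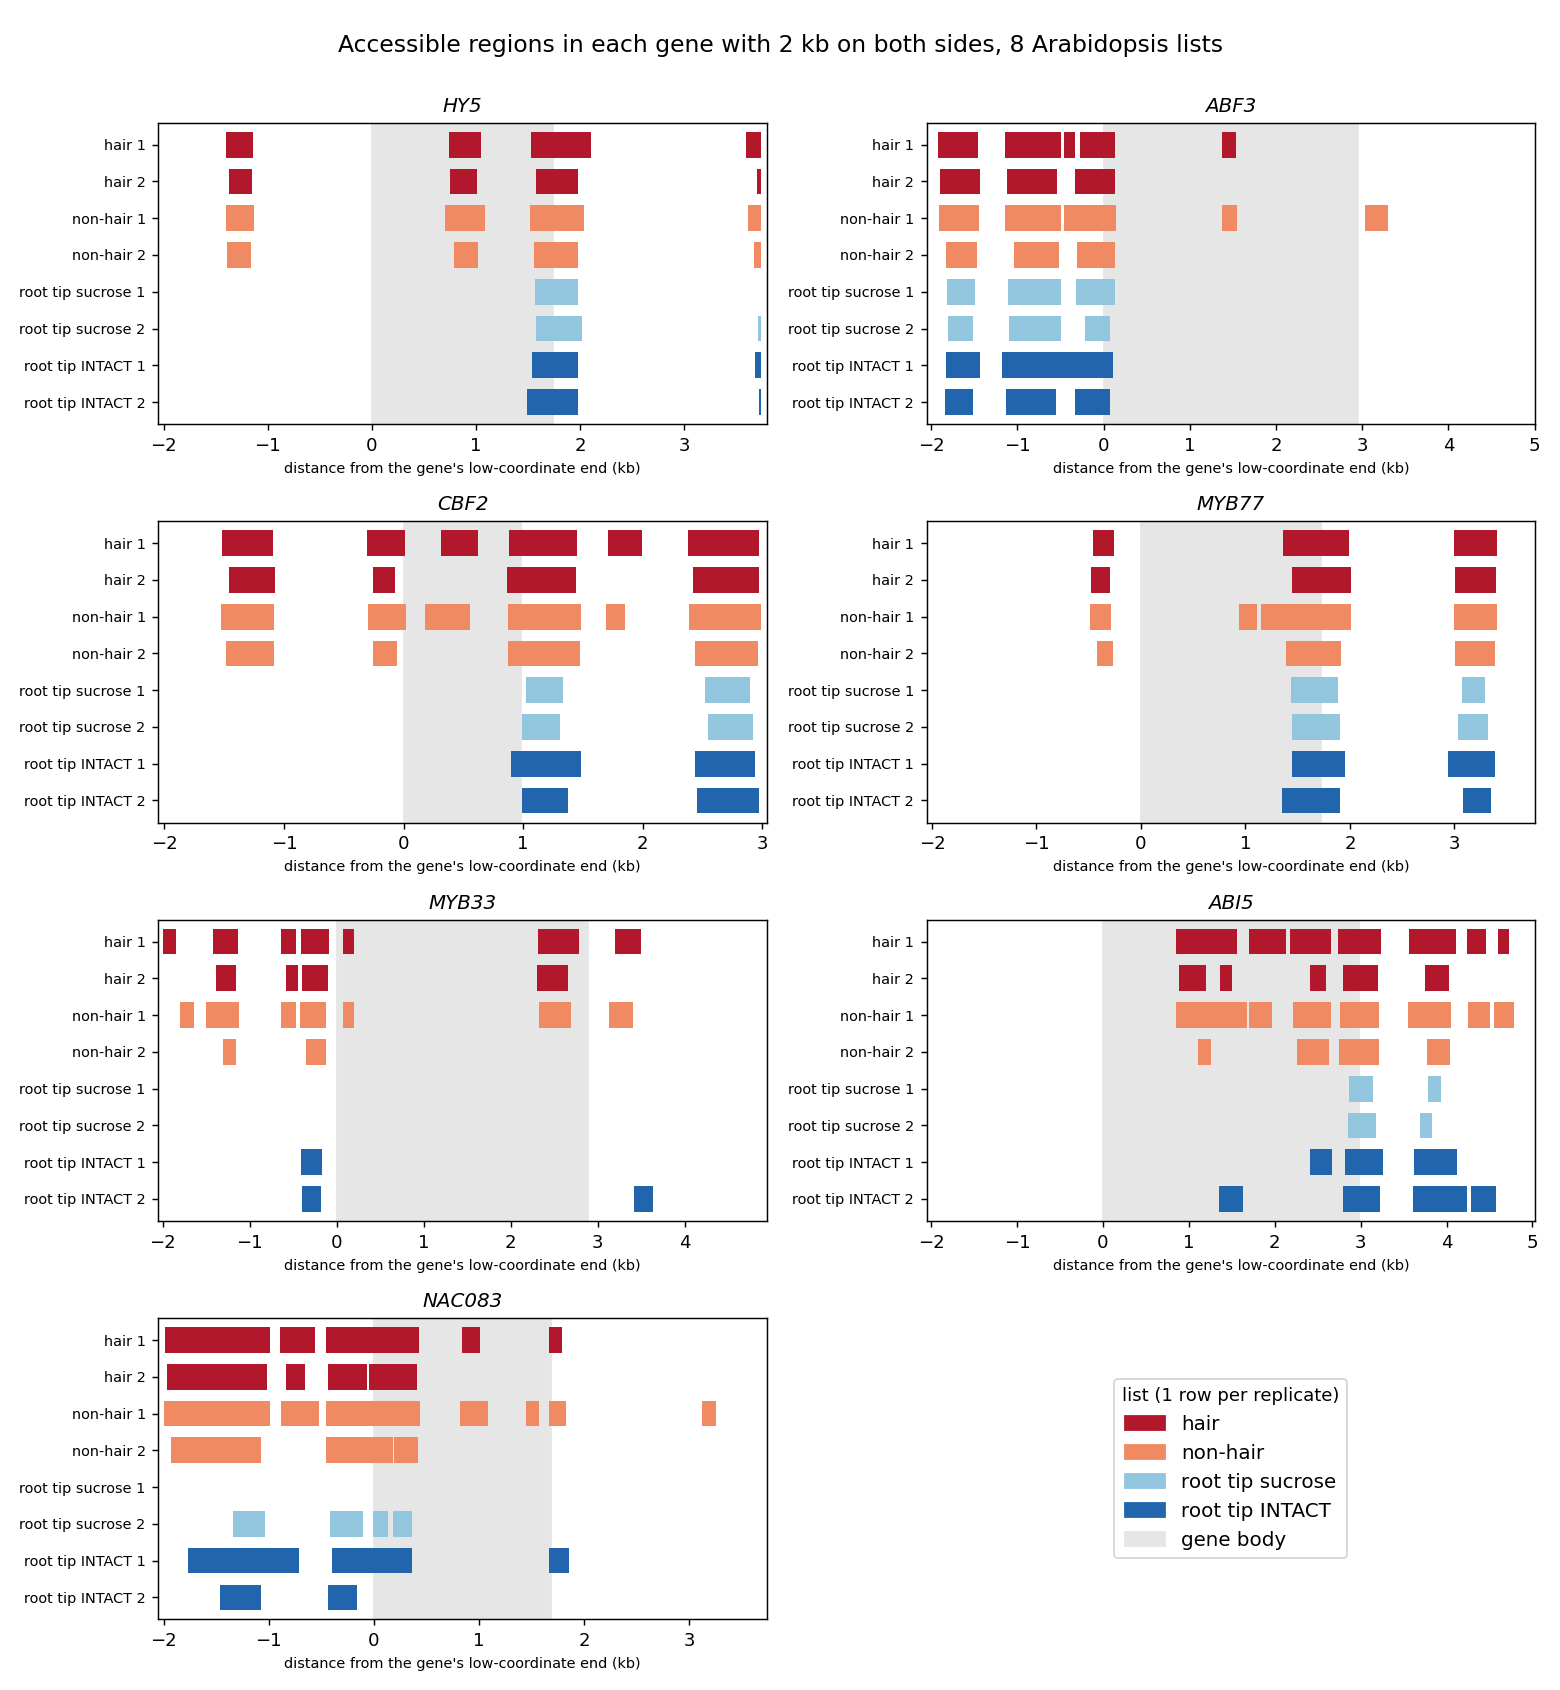
Regions of each list (1 row per replicate, hair at the top and INTACT root tip at the bottom) along the 7 gene windows, cut at the window edges, with the distance in kb from the low-coordinate end of the gene (grey) on the x axis. HY5, CBF2, MYB77 and ABI5 have a region at the high-coordinate end in all 8 lists, ABF3 has regions at and beyond the low-coordinate end in all 8, and MYB33 is empty in both sucrose lists.

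HY5, on chromosome 5, had 1281 and 936 bp covered in hair lists, 1298 and 962 bp in non-hair lists, 416 and 472 bp in sucrose lists and 502 and 505 bp in INTACT root tip lists. All 4 epidermal lists lay above all 4 root tip lists, and hair and non-hair lists overlapped. The constant feature was a region across the high-coordinate end of the gene. It was 574 and 405 bp wide in hair lists, 519 and 425 bp in non-hair lists, 416 and 443 bp in sucrose lists and 441 and 485 bp in INTACT root tip lists. The bases inside it in all 8 lists ran from 3594911 to 3595309, or from −162 to 236 bp relative to that end, and reach the neighbouring gene OCP3, which begins 200 bp beyond HY5. This region was wider than 73.1% to 88.9% of the regions of its list. All 4 epidermal lists, and no root tip list, held another 2 regions. One lay inside HY5 (joined extent 3594033 to 3594419), and the other lay in the adjoining gene AT5G11250 (3591934 to 3592198). They were 221 bp to 387 bp wide. A further region over OCP3 and AT5G11280, at the edge of the window, appeared in all 8 lists, but in sucrose replicate 1 it lay wholly outside the window.

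ABF3, on chromosome 4, had 1818 and 1498 bp covered in hair lists, 2156 and 1324 bp in non-hair lists, 1391 and 1196 bp in sucrose lists and 1670 and 1292 bp in INTACT root tip lists. The groups overlapped except that both hair lists exceeded both sucrose lists. Almost all of this length lay on the low-coordinate side. The 8 lists shared 3 blocks there. The outermost spans 16293531 to 16293815, the next 16294291 to 16294779 and the innermost 16295114 to 16295405. The innermost block crosses the low-coordinate end of the gene (−220 to 71 bp), and no other annotated gene lies under the 3 blocks. In total 1066 bp of the ABF3 window were inside regions of all 8 lists, more than in any of the other 6 windows. INTACT replicate 1 joined the 2 blocks nearest the gene into 1 region of 1280 bp, the widest of the set. Regions elsewhere in the ABF3 window came from the long epidermal replicate 1 lists alone, with a region of 167 and 168 bp inside the gene in hair and non-hair cells and 1 of 266 bp beyond the high-coordinate end, in the neighbouring gene DJ1C, in non-hair cells.

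ABI5, on chromosome 2, had 3010 and 1323 bp covered in hair lists, 2986 and 1252 bp in non-hair lists, 430 and 467 bp in sucrose lists and 1201 and 1618 bp in INTACT root tip lists. The 2 epidermal replicate 1 lists stood far above the other 6, and the sucrose lists were lowest. A region across the high-coordinate end was in all 8 lists, with 15207528 to 15207807 shared by all of them (−108 to 171 bp from that end). A second one, beyond that end, was in all 8 lists, but their regions had no more than 51 bp in common (15208440 to 15208490). In sucrose replicates 1 and 2 it was 150 and 140 bp wide, the narrowest width of each list. ABI5 also had regions within the gene body, none of them in a sucrose list. The joined regions from 15205504 to 15206339 and from 15206836 to 15207323 were each in 4 of 4 epidermal lists, no sucrose list and 1 of the INTACT root tip lists. The first was found in INTACT replicate 2 and the other in INTACT replicate 1. In the first, the region of non-hair replicate 2 (15205762 to 15205913) had the narrowest width of its list, 152 bp. It shared no base with the region of INTACT replicate 2 (15206010 to 15206283).

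CBF2, on chromosome 4, had 2492 and 1693 bp covered in hair lists, 2507 and 1716 bp in non-hair lists, 680 and 699 bp in sucrose lists and 1077 and 911 bp in INTACT root tip lists. The 4 epidermal lists lay above the 4 root tip lists, and both INTACT root tip lists lay above both sucrose lists. All 8 lists shared 285 bp just beyond the high-coordinate end (13016277 to 13016561, 42 to 326 bp from that end). They also shared 352 bp from 13017796 to 13018147, between CBF2 and its relative CBF3 (DREB1A in the gene table), and these bases reach the near end of CBF3 and a noncoding gene, AT4G07385. The window of CBF3 therefore shares this region. On the low-coordinate side, 2 regions were in all 4 epidermal lists and in no root tip list. The joined region across the low-coordinate end (13014947 to 13015267) was made of regions 178 bp to 315 bp wide. Those of hair and non-hair replicate 1 ended at 10 and 17 bp relative to that end, inside the gene. Those of hair and non-hair replicate 2 ended at −76 and −58 bp, outside the gene. The region in the neighbouring gene ABCB28 (13013727 to 13014173) was 383 bp to 438 bp wide and exceeded 73.1% to 76.1% of the regions of its list in width.

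MYB77, on chromosome 3, had 1229 and 1143 bp covered in hair lists, 1635 and 1063 bp in non-hair lists, 671 and 749 bp in sucrose lists and 941 and 820 bp in INTACT root tip lists. Here too the 4 epidermal lists lay above the 4 root tip lists. The region across the high-coordinate end was in all 8 lists and wide in each, from 447 bp to 858 bp, or wider than 80.1% to 95.5% of its list. Its shared bases ran from 18559057 to 18559488. Beyond that end, a region in all 8 lists shared 18560691 to 18560898, where no other gene is annotated. The narrow region in the adjoining gene AT3G50050 (18557121 to 18557344), 152 bp to 197 bp wide, was in all 4 epidermal lists and no root tip list. In non-hair replicate 2 it had the narrowest width of that list.

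MYB33, on chromosome 5, was the only one of the 7 genes without a region in both sucrose lists. It had 1832 and 1027 bp covered in hair lists, 1776 and 381 bp in non-hair lists, 0 and 0 bp in sucrose lists and 239 and 422 bp in INTACT root tip lists. INTACT replicate 2 exceeded non-hair replicate 2, so the epidermal and INTACT root tip lists overlapped. No base was inside regions of all 8 lists. The most constant region lay on the low-coordinate side (joined extent 1837418 to 1837743, ending 92 bp before the gene) and was in all 4 epidermal and both INTACT root tip lists. In INTACT replicate 2 it had the narrowest width of its list, 211 bp, and in INTACT replicate 1 it was 239 bp wide. A region in the neighbouring gene GPAT7 (1836337 to 1836714) was in all 4 epidermal lists and no root tip list. In non-hair replicate 2 it was 152 bp wide, the narrowest width of that list. Inside MYB33, a region of 360 bp to 474 bp near the high-coordinate end was in both hair lists and non-hair replicate 1, and was missing from non-hair replicate 2, the shortest epidermal list.

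NAC083, on chromosome 5, had 2501 and 1962 bp covered in hair lists, 2950 and 1725 bp in non-hair lists, 0 and 942 bp in sucrose lists and 2006 and 663 bp in INTACT root tip lists. INTACT replicate 1 exceeded hair replicate 2 and non-hair replicate 2, so the epidermal and INTACT root tip lists overlapped. Most of the covered length of NAC083 lay across the low-coordinate end (joined extent 4195802 to 4196692) and farther out on that side (4194262 to 4195730). Both joined regions were in every list but sucrose replicate 1. The outer region contained the widest single stretches of the epidermal lists at these genes, at 995 and 951 bp in hair lists and 1005 and 856 bp in non-hair lists. Each of these exceeded 97.3% to 98.4% of the regions of its list in width. The matching stretch measured 304 bp in sucrose replicate 2, 1055 bp in INTACT replicate 1 and 389 bp in INTACT replicate 2. Another 4 joined regions lay inside NAC083, across its high-coordinate end and beyond it. They were 127 bp to 268 bp wide and came from hair replicate 1 and non-hair replicate 1, except that the region across the high-coordinate end (4197921 to 4198113) was also in INTACT replicate 1, at 191 bp. A noncoding gene, AT5G00390, overlaps the low-coordinate end of NAC083.

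**Figure D2:**
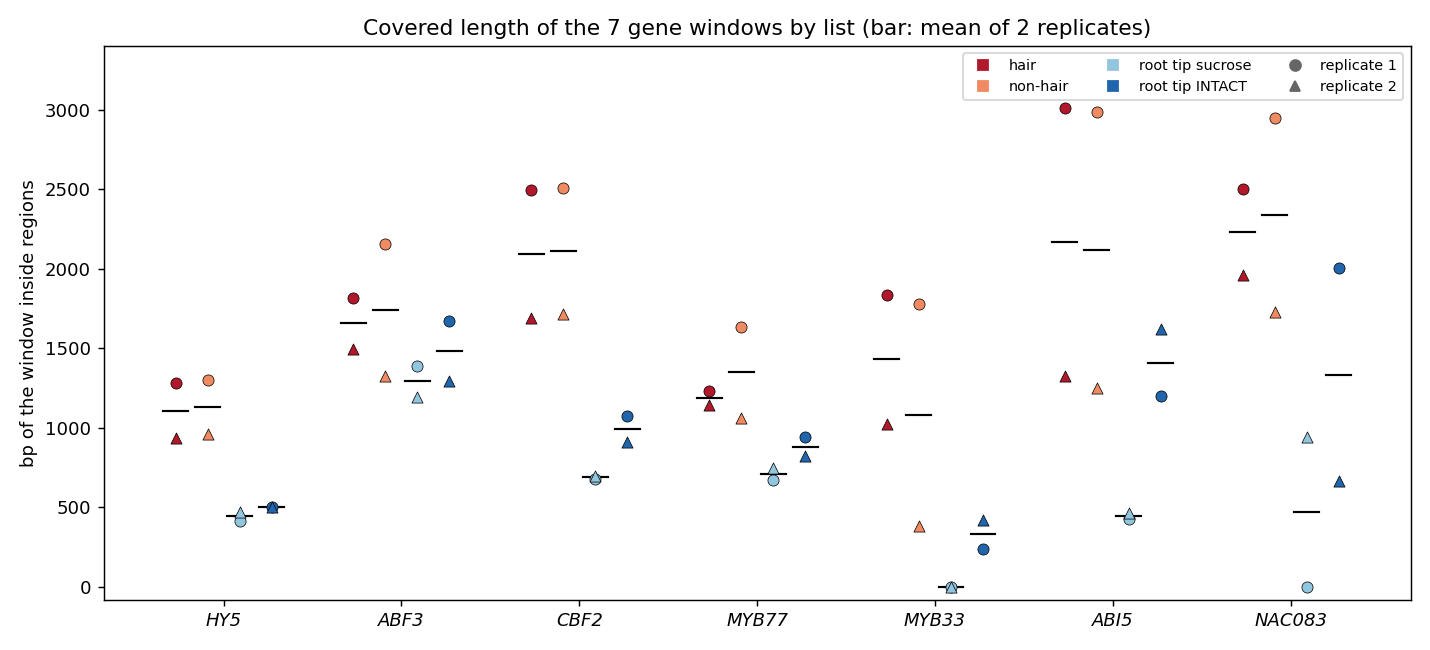
Covered length in bp of each gene window for every list (circle replicate 1, triangle replicate 2, bar the mean of 2 replicates), by group. Epidermal lists lie above root tip lists for HY5, CBF2 and MYB77, and replicate 1 of hair and non-hair cells lies above replicate 2 for all 7 genes.

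The epidermal comparison set cells of the differentiated zone against whole root tips. The mean covered length was larger in the epidermal lists than in the INTACT root tip lists for all 7 genes, but the groups did not overlap for 3 of them (42.9%), namely HY5, CBF2 and MYB77. That share is near the background, since 40.4% of all protein-coding genes lay higher in this way. None of the 7 genes lay lower without overlap, against 0.871% of all genes. HY5 averaged 1119 ± 197 bp in epidermal lists (SD, n = 4) and 503.5 ± 2.12 bp in INTACT root tip lists (SD, n = 2), a difference of 616 bp. Its exact two-sided permutation p was 0.0667, the smallest that 4 lists against 2 allow, with a Benjamini-Hochberg adjusted p of 0.331 over all genes. CBF2 averaged 2102 ± 459 bp in epidermal lists (SD, n = 4) and 994 ± 117 bp in INTACT root tip lists (SD, n = 2; exact permutation p = 0.133, adjusted 0.331). This difference of 1108 bp exceeded that of 92.5% of all genes. MYB77 averaged 1267.5 ± 254 bp in epidermal lists (SD, n = 4) and 880.5 ± 85.6 bp in INTACT root tip lists (SD, n = 2; exact permutation p = 0.133, adjusted 0.331). The remaining 4 genes had differences of 218 bp (ABF3), 733 bp (ABI5), 923.5 bp (MYB33) and 950.0 bp (NAC083), with exact permutation p between 0.2 and 0.467. Single lists moved 3 of these differences by more than 1.5 times. For NAC083 the difference was 1621.5 bp without INTACT replicate 1 and 278.5 bp without INTACT replicate 2. For ABF3 it was 407 bp without INTACT replicate 1, 29.0 bp without INTACT replicate 2, 65.7 bp without non-hair replicate 1 and 343 bp without non-hair replicate 2. For ABI5 it was 444 bp without hair replicate 1 and 452 bp without non-hair replicate 1. The median difference was 733 bp over the 7 genes and 329 bp over all genes.

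The epidermal lists are longer than the root tip lists, and the direction depended on the scaling for some genes. Per Mb of sequence that the whole list covers, the median difference over all genes was 4.02 bp. On this scale HY5 had 73.0 and 81.6 bp in hair lists, 71.9 and 96.4 bp in non-hair lists and 57.0 and 60.8 bp in INTACT root tip lists. HY5 and CBF2 still lay above the INTACT root tip lists without overlap. ABF3 lay below them without overlap, by a mean of −51.1 bp per Mb, and the MYB77 and ABI5 differences turned negative, at −11.2 and −21.3 bp per Mb. The split was therefore 2 higher and 1 lower per Mb, against 24.5% and 12.4% of all genes. With the same number of widest regions from every list (11702), CBF2 alone lay higher (17.2% of all genes) and 0 genes lay lower (4.72% of all genes). Without INTACT replicate 1, 5 of the 7 genes lay higher without overlap, and so did 53.7% of all genes. Without INTACT replicate 2 the count was also 5, against 53.9% of all genes.

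The cell type comparison asked whether the 7 genes separate hair cells from non-hair cells. For each gene the hair and non-hair lists overlapped, so 0 genes lay higher and 0 lower without overlap, against 3.89% and 1.32% of all genes. The exact two-sided permutation p was 0.667 or 1 for each of the 7 genes, and 0.333 is the smallest that 2 lists against 2 allow, so no gene could pass a threshold of 0.05, unadjusted or adjusted. HY5 averaged 1108.5 ± 244 bp in hair lists and 1130.0 ± 238 bp in non-hair lists (SD, n = 2 each). CBF2 averaged 2092.5 ± 565 bp in hair lists and 2111.5 ± 559 bp in non-hair lists (SD, n = 2 each). The largest difference was at MYB33, with 1429.5 ± 569 bp in hair lists and 1078.5 ± 986 bp in non-hair lists (SD, n = 2 each), and it was smaller than the spread between replicates. The spread moved with the length of the lists, whose part in it was not tested. Replicate 1 had more covered length than replicate 2 for 7 of 7 genes in hair cells and 7 of 7 in non-hair cells, as for 89.7% and 89.3% of all genes. Per Mb covered by the whole list, the counts were again 0 higher (10.7% of all genes) and 0 lower (11.2%). With equal numbers of widest regions, MYB33 lay higher in hair (6.09% of all genes) and 0 genes lay lower (3.89%). The count of 0 rested on having both replicates. Without non-hair replicate 1, 5 genes lay higher in hair (61.5% of all genes), and without non-hair replicate 2, 5 lay lower (52.2% of all genes). Without hair replicate 1, 2 genes lay lower (24.6% of all genes), and without hair replicate 2, 2 lay higher (39.9% of all genes). Among single regions, none at the 7 genes was shared by the hair replicates and missing from both non-hair lists, a pattern of 0.745% of the joined regions near all genes. None was shared by the non-hair replicates and missing from both hair lists, against 0.221%.

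The purification comparison set sucrose sedimentation against INTACT in whole root tips. Covered length was lower in sucrose lists without overlap at 5 genes (71.4%), namely HY5, CBF2, MYB77, MYB33 and ABI5, where 48.8% of all genes lay lower, and at 0 genes higher, against 0.623% of all genes. The direction depended on the scaling. Per Mb covered by the whole list, HY5, ABF3, CBF2 and MYB77 lay higher in sucrose lists without overlap (18.2% of all genes), and MYB33 and ABI5 lay lower (13.7% of all genes). With equal numbers of widest regions, CBF2 and ABI5 lay lower (26.2% of all genes) and 0 genes higher (4.25%), and no difference of the 7 genes turned positive. ABI5 had the largest difference, with 448.5 ± 26.2 bp in sucrose lists and 1409.5 ± 295 bp in INTACT root tip lists (SD, n = 2 each; exact permutation p = 0.333, adjusted 0.675). Its difference was −961 bp, and 3.92% of all genes had a more negative one. ABF3 averaged 1293.5 ± 138 bp in sucrose lists and 1481 ± 267 bp in INTACT root tip lists (SD, n = 2 each), and without INTACT replicate 1 the difference was 1.5 bp instead of −187.5 bp. ABF3 was also among the windows with the highest coverage in the sucrose lists, above 98.8% and 96.7% of all genes in percent of window covered.

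Relative to window length, CBF2 and NAC083 were the most accessible of the 7 genes in the epidermis. CBF2 had 49.98% and 33.96% of its window inside regions in hair lists and 50.3% and 34.4% in non-hair lists, above 96.1% to 97.4% of all genes. NAC083 had 44.0% and 34.5% in hair lists and 51.9% and 30.3% in non-hair lists. In the 2 INTACT root tip lists the order differed. NAC083 was highest in replicate 1, at 35.3%, and ABI5 in replicate 2, at 23.2%, so the leading gene of the root tip was not set by these lists. MYB33 was lowest of the 7 in 4 of the 4 root tip lists, tied with NAC083 in sucrose replicate 1. It was also lowest in hair replicate 2, at 14.9%, and in non-hair replicate 2, at 5.53%. The median over the 7 windows was 26.6% and 20.0% in hair lists, 31.0% and 18.6% in non-hair lists, 7.25% and 13.1% in sucrose lists and 17.2% and 14.3% in INTACT root tip lists. The median over all genes ranged from 0% in sucrose replicate 1 to 16.3% in non-hair replicate 1.

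**Figure D3:**
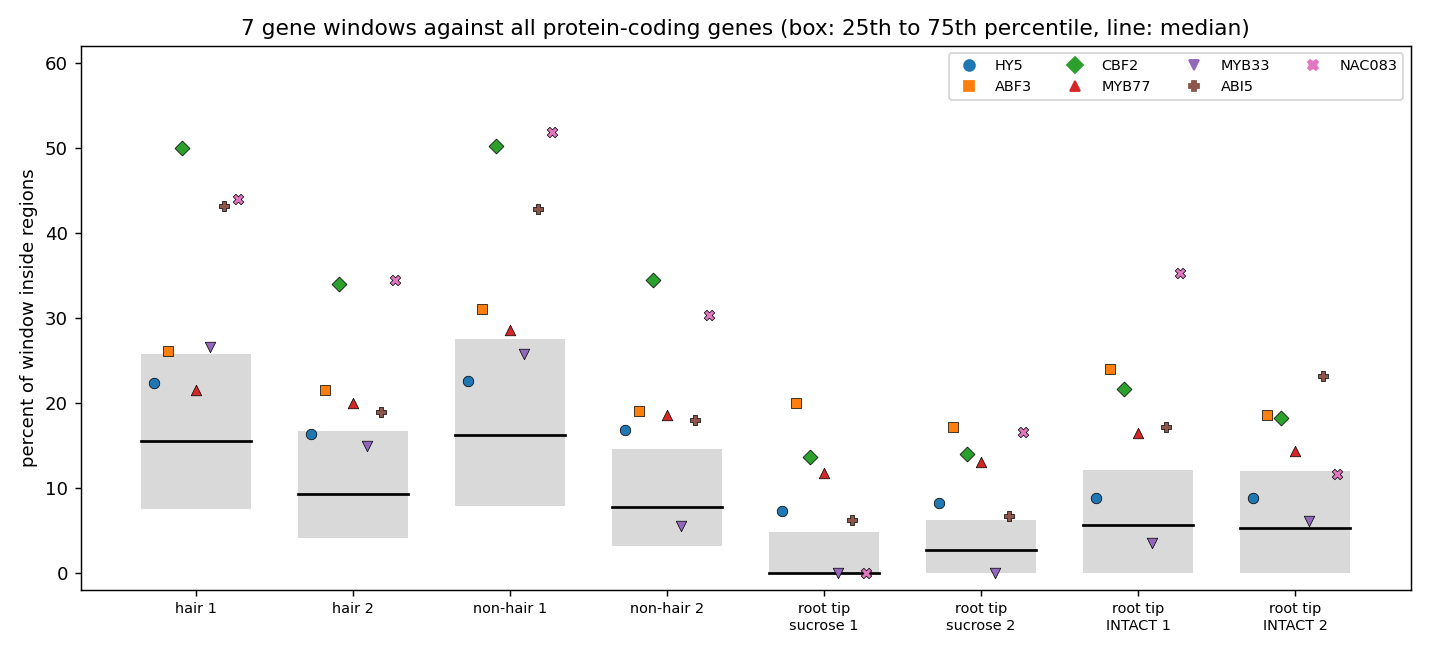
Percent of each gene window inside regions, by list, with the 25th to 75th percentile (grey box) and median (line) of all protein-coding genes. ABF3, CBF2 and ABI5 lie above the box in all 8 lists, and MYB33 lies at 0% in both sucrose lists.

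Regions of different lists that overlapped were joined, which gave 37 joined regions at the 7 genes. Of these, 10 (27.0%) were in all 8 lists, against 13.8% of the joined regions near all protein-coding genes. They belonged to HY5, ABF3, CBF2, MYB77 and ABI5, with 2 at each gene. The one at the edge of the HY5 window lay outside that window in sucrose replicate 1. When at least 50% of a joined region had to lie in the window, 9 were in all 8 lists. MYB33 and NAC083 had none. Another 6 joined regions (16.2%) were in all 4 epidermal lists and no root tip list, against 10.1% near all protein-coding genes, or 10.9% when the sucrose lists are left out of the rule, which gave the same 6. Among regions of at least 200 bp, 8 of 27 joined regions (29.6%) were in all 8 lists, against 13.7% near all genes. The epidermal pattern was held by 3 of the 27 (11.1%), against 8.32% near all genes. With equal numbers of widest regions, 6 of 17 joined regions (35.3%) were in all 8 lists, against 18.3% near all genes. Of these 17, 0 had the epidermal pattern, against 3.37% near all genes. Over the full lists, the 6 joined regions of the epidermal pattern lay at HY5 (2), CBF2 (2), MYB77 (1) and MYB33 (1). By joined extent, 4 of these 6 lay in the low-coordinate flank inside or across a neighbouring gene, 1 across the low-coordinate end of CBF2 and 1 inside HY5. The regions behind them were 152 bp to 438 bp wide. The reverse pattern, in both INTACT root tip lists and no epidermal list, was seen at none of the 7 genes, and at 0.204% of the joined regions near all genes. Regions in a single list numbered 6 (16.2%), against 25.5% near all genes. Regions were joined because they overlap, so their positions had to be close. For the 8 joined regions with 1 region in each list, midpoints spread over 41.5 bp to 143 bp between the 8 lists, with the largest spread at the MYB77 gene end.

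**Figure D4:**
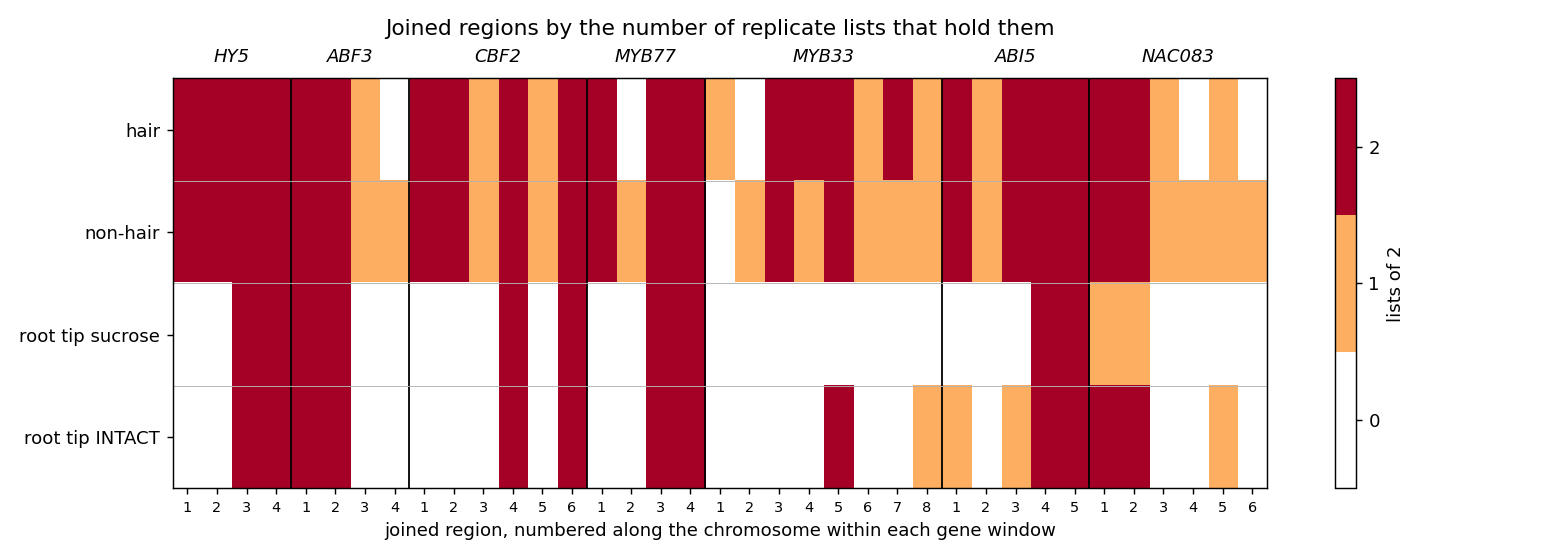
Joined regions (columns, numbered along the chromosome in each gene window) by the number of replicate lists of 2 that hold them, for hair, non-hair, sucrose and INTACT root tip lists. Of 37 joined regions, 10 are filled in all 4 rows at 2 lists, and 6 are filled at 2 lists in both epidermal rows and empty in both root tip rows.

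Related genes were read in the same way, from lists of partners and relatives of the 7 factors with 34 genes in all. A region was found in at least 1 list at 33 of them, the exception being ABI4, an AP2-type factor of abscisic acid signalling, and in all 8 lists at 14 (41.2%, against 44.6% of all genes). Epidermal lists lay above INTACT root tip lists without overlap at 15 of 34 (44.1%), against 40.4% of all genes, and at none below. The median difference was 271 bp over the 34 genes. The 3 closest MYB relatives of MYB77 all lay higher, with MYB44 at 3305 and 2406 bp in hair lists, 4063 and 1885 bp in non-hair lists and 1269 and 674 bp in INTACT root tip lists. Of the 7 VND vessel factors, to which the partner of NAC083 belongs, 6 lay higher. Some of these had little covered length. In epidermal lists VND6 had at most 169 bp, VND5 at most 220 bp and VND4 at most 264 bp. VND7 itself overlapped, with 718 and 422 bp in hair lists, 769 and 0 bp in non-hair lists and 573 and 211 bp in INTACT root tip lists. None of the 6 GAMYB-like relatives of MYB33 lay higher, and MYB65, a close relative, had 828 and 247 bp in hair lists, 1147 and 273 bp in non-hair lists and 295 and 748 bp in INTACT root tip lists. Of the CBF genes, CBF1 had 2723 and 2259 bp in hair lists, 2880 and 2218 bp in non-hair lists and 1514 and 696 bp in INTACT root tip lists and lay higher without overlap. CBF3 also lay higher, by 478 bp, and CBF4 and ICE1, an inducer of CBF genes, overlapped, with differences of 161 bp and −18.2 bp. OST1, a kinase, and ABI3, a B3-type factor, lay higher among 6 genes of abscisic acid signalling. COP1, the ligase that targets HY5, also lay higher, and HYH, the closest relative of HY5, overlapped. Of the 6 other bZIP factors near ABF3 and ABI5, AREB3 lay higher and 5 overlapped. Hair and non-hair lists did not overlap at 1 of the 34 genes (3.89% of all genes lay higher and 1.32% lower), VND1, which had 848 and 745 bp in hair lists and 713 and 509 bp in non-hair lists. In sucrose lists 16 of 34 (47.1%) lay below INTACT root tip lists, against 48.8% of all genes, and 2, VND2 and VND3, lay above, against 0.623%.

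For each of the 7 genes, the gene with the most similar covered lengths over the 8 lists was sought among the other 27443. Likeness was the mean absolute difference in covered bp over the 8 lists. The nearest gene was AT5G61370 for HY5, at 45.5 bp, AT1G14170 for MYB77, at 63.5 bp, and sks15 for MYB33, at 68.1 bp. CBF2 was nearest to AT3G56350, at 82.4 bp, and NAC083 to CBL9, a calcium sensor gene, at 124 bp. ABF3 was nearest to AT3G05900, at 131 bp, and ABI5 to AT2G20830, at 147 bp. This is a description of 8 values per gene, and longer lists raise most genes together.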

How the data were processed

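ATAC-seq regions of 8 Arabidopsis samples were used (4 groups, 2 biological replicates each, per the series' design text). Per the submitters' processing notes, Bowtie2 and HOMER were used and TAIR10 is a named build. The deposited list names give HOMER, region and a setting of 150. Versions, filters and any pooling are not given in the sources used here. The deposited values are start and end in bp, and coordinates are printed counted from 1. A genomic DNA sample is listed and was not analysed here.

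Gene positions and neighbours came from the RefSeq table of TAIR10.1, in which chromosomes 1 to 5 are taken to be those of TAIR10. As a check, 9.80% to 34.7% of gene ends lay inside regions of a list. Of the positions 10 kb from each gene end, in the direction of the other end, 3.11% to 17.1% did. The table has no strand, so the intended window of 2 kb upstream and 1 kb downstream was replaced by 2 kb on both sides. No promoter or protein sequences were used here.

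A region counted when it shared at least 1 bp with the window. Groups were compared by exact two-sided permutation of the mean covered length for all 27444 genes, with Benjamini-Hochberg adjustment. No gene passed an adjusted or unadjusted p of 0.05 in any comparison (0 of 27444), which the number of lists does not allow. The routines were run on simulated epidermal and INTACT root tip lists of 27444 genes, where 200 of 200 planted genes were recovered. Planted genes had an added region in every epidermal list, large enough that the groups could not overlap. The run therefore checks the computation only, and says nothing of power or error rates in the real lists. Alternatives are given in the closing section. All 7 genes were named, plus related genes from fixed lists and the nearest gene by covered length. The members and lists were chosen with earlier results of these data known. Software was NumPy 2.4.6 and pandas 2.3.3 under Python 3.11.15, with figures from Matplotlib 3.10.9.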

Additional observations from a re-analysis of the deposited data

How the results depend on the processing

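The lists give no depth, and their lengths differ 4.48-fold, which limits every comparison of groups. Leaving out 1 list removes 7 of the 56 gene and list pairs by construction, and left 46 to 48 of 49 with a region. The number of pairs with a region (53) was 49 with the 11702 widest regions of every list. That equal number of widest regions left 17 joined regions, with 6 in all 8 lists and 0 in all 4 epidermal lists and no root tip list. It also gave 1 gene higher in hair, 1 higher in epidermal and 2 lower in sucrose lists. Regions of at least 200 bp, or a flank of 1 kb on the low-coordinate side, left 3 epidermal joined regions, and 1 kb on both sides left 3 and 6 in all 8 lists. With 2 kb on the low-coordinate side and 1 kb on the other, 6 epidermal joined regions and 7 in all 8 lists were left. In that window, and with 1 kb on both sides, 4 genes lay higher in epidermal lists. The shares of all genes and of all joined regions were not computed for these windows. Their counts therefore have no background to be read against. Per Mb covered by the whole list, 1 gene lay lower in epidermal lists, and 4 lay higher and 2 lower in sucrose lists. The cause was not tested beyond these constructions.

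Replicate numbers do not pair the samples by their labels. Deviations of same-numbered hair and non-hair lists correlated at 0.622 over all genes, those of sucrose and INTACT root tip lists at −0.0823. With the replicate block, comparing same-numbered lists, 2 genes lay higher and 2 lower in hair (26.5% and 14.2% of all genes), and 5 higher in epidermal lists (51.0%). Leaving out 1 list gave 0 to 5 genes higher in hair (4.25% to 61.5% of all genes) and 0 to 5 lower (1.5% to 52.2%), and 3 to 5 higher in epidermal lists (40.4% to 53.9%).

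Differences in covered length that changed sign, hair minus non-hair, were CBF2 (71 bp) and ABI5 (−102.5 bp) with regions of at least 200 bp, HY5 (56.5 bp) and NAC083 (134.5 bp) with equal numbers of widest regions, and ABI5 per Mb (−2.09 bp). For epidermal minus INTACT root tip, they were ABF3 with equal numbers (−67 bp), and ABF3 (−51.1), MYB77 (−11.2) and ABI5 (−21.3) per Mb. For sucrose minus INTACT root tip per Mb they were HY5 (57.7), ABF3 (174), CBF2 (66.4) and MYB77 (83.9). Leaving out 1 list moved hair minus non-hair between −194 and 151 bp for HY5, −498 and 334 for ABF3, −418.5 and 380.5 for CBF2, −449 and 123 for MYB77, −346.5 and 1048.5 for MYB33, −819.5 and 914.5 for ABI5 and −718.5 and 506.5 for NAC083. It moved sucrose minus INTACT root tip for ABF3 between −376.5 and 1.5 bp. The planned window of 1 kb upstream alone was not run, since no strand was given. The windows of 1 kb on 1 or both sides and the counts of joined regions were added after seeing the data.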
